A study of Solea senegalensis with 8 samples.

Results

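The miRNAs described here are those known from the pancreas and from endocrine cells of other vertebrates. They are miR-375, miR-7a, miR-7b, miR-216a, miR-216b and miR-217, which are all the miRNAs in the table of Senegalese sole (Solea senegalensis) of the families miR-7, miR-216, miR-217 and miR-375 (the let-7 family is another one). They make up 6 of the 320 miRNAs of the table. The small RNA of 8 libraries was read by SOLiD sequencing, with 1 library for each of 4 stages and 2 incubation temperatures. The stages were 75% epiboly (75Ep) and 20 somites (20S), from whole embryos, and newly hatched larvae (Hatch) and larvae at metamorphosis climax (Met), from whole larvae. The eggs were spawned by captive fish, and the incubation was at 15°C for 1 group and at 21°C for the other until hatching. Larvae from both temperatures were then reared at a common temperature after hatching and given live prey, so that Met larvae also differ from the earlier stages in having fed. Each library came from a pool of triplicate samples, and a group of 1 stage and 1 temperature therefore has no replicate library.

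miR-375 is the most abundant miRNA of the pancreatic islet in mouse. It limits insulin secretion there, and its knockdown in zebrafish disturbs the formation of the islet. It is also read in the pituitary. miR-7 is a miRNA of neurosecretory cells, expressed in the brain, the pituitary and the endocrine pancreas. miR-216a, miR-216b and miR-217 are encoded close together in vertebrate genomes and are known from the acinar cells of the exocrine pancreas, which make digestive enzymes. In whole embryos and larvae, more cells of a type and more of a miRNA in each cell cannot be told apart.

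The trimmed reads numbered 2169069 to 4965849 per library, and reads of the 320 miRNAs took 6.59% to 46.0% of them. The miR-430 family, which marks early embryos, took 1.44% to 5.83% of trimmed reads at 75Ep, 20S and Hatch and at most 0.00421% at Met. The let-7 family, which marks late stages, took at most 0.0275% before Met and 0.248% to 0.723% at Met. Levels below are in reads-per-million of the trimmed reads of a library (RPM), paired values are given for 15°C first and for 21°C second, and the intervals in parentheses are exact at 95% and cover counting error only. The 6 miRNAs together had 251 and 238 reads at 75Ep, then 4500 and 4385 at 20S, 6841 and 5338 at Hatch, then 14115 and 4772 at Met. They took 0.131% to 0.166% of all miRNA reads at 75Ep and 0.537% to 0.766% at the later stages. Nearly all of these reads belonged to miR-7a, with 25280 in total, and miR-375, with 12780. miR-216b had 1473, miR-217 had 749, miR-216a had 144 and miR-7b had 14.

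The islet miRNA miR-375 was scarce at 75Ep, abundant at 20S and Hatch, and lower again at Met. At 75Ep it had 14 and 24 reads, followed by 2328 and 2722 reads at 20S, 3271 and 2754 at Hatch, then 1122 and 545 at Met. As a level this was 4.99 (2.73 to 8.38) and 11.1 (7.09 to 16.5) RPM at 75Ep, and 701 (673 to 730) and 1061 (1022 to 1102) at 20S. At Hatch it was 759 (733 to 785) and 846 (814 to 878), and at Met 226 (213 to 240) and 128.3 (118 to 140). The libraries of 20S and Hatch thus lay above those of Met, and those of Met above those of 75Ep, at both temperatures. By number of reads miR-375 ranked 115th and 109th of the miRNAs of 75Ep, 40th and 31st of 20S, 55th and 47th of Hatch, then 118th and 102nd of Met.

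**Figure D1:**
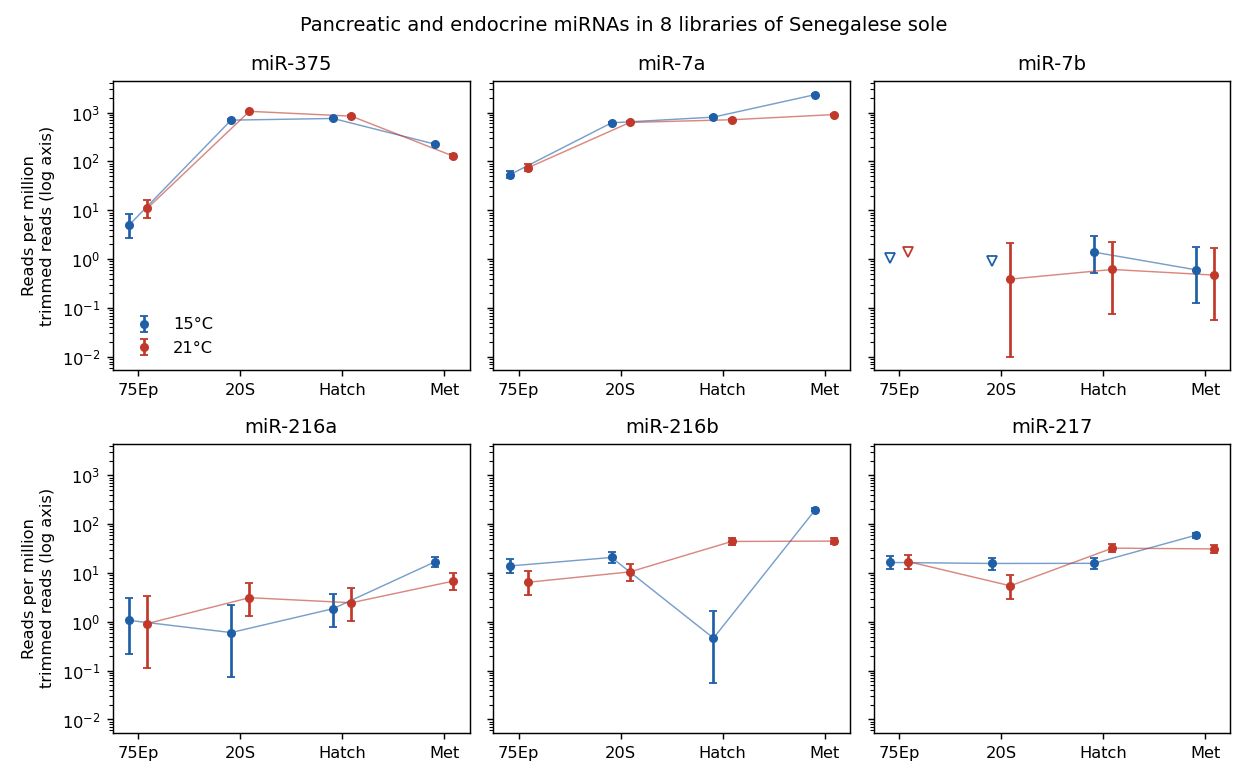
Level in RPM (log axis) of each of the 6 miRNAs in the 8 libraries, by stage, at 15°C (blue) and 21°C (red), with exact 95% counting intervals as bars. Open triangles mark libraries with no read, placed at the level of 3 reads. miR-375 climbs from 4.99 and 11.1 at 75Ep to 701 and 1061 at 20S and declines at Met, miR-7a is highest at Met, and miR-216b drops to 2 reads in the Hatch library at 15°C.

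miR-7a, of neurosecretory cells, already had 149 and 161 reads at 75Ep, and it was highest at the last stage. At 20S it had 2049 and 1613 reads, in newly hatched larvae 3486 and 2325, and at metamorphosis 11624 and 3873. The levels were 53.2 (45.0 to 62.4) and 74.2 (63.2 to 86.6) RPM at 75Ep, 617 (591 to 644) and 629 (599 to 660) for 20S, 808 (782 to 836) and 714 (685 to 744) for Hatch, then 2341 (2298 to 2384) and 912 (883 to 941) at Met. The levels at 20S lay above those at 75Ep and below those at Hatch, and the Met libraries were the highest, although the Met library at 21°C was close to the Hatch library at 15°C. Its rank was 36th and 51st at 75Ep, and between 37th and 53rd in the later libraries. miR-7a therefore kept its place among the miRNAs while its share grew.

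miR-7b was barely read. It had no read at 75Ep at either temperature and none at 20S at 15°C, 1 read at 20S at 21°C, then 6 and 2 for Hatch, with 3 and 2 for Met. For these counts of 0 the upper limit was 1.32 and 1.70 RPM at 75Ep and 1.11 at 20S at 15°C. Each is more than the level of miR-7b in the later libraries other than Hatch at 15°C. That level, 1.39, is exceeded by the limit at 75Ep at 21°C only. Its absence from the early libraries is therefore not shown at this depth. Per 100 reads of miR-7a there were at most 0.172 reads of miR-7b (0.0631 to 0.375), in the Hatch library at 15°C. The reads of the close paralogs may have been divided between them in mapping. Summing both gave the same changes as miR-7a alone, with a rise of 4.54 on the log2 scale from 75Ep to Met for miR-7a and for the sum. With so few reads of miR-7b the sum could hardly differ from miR-7a, so it does not show how reads were divided.

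The 3 acinar miRNAs were scarce in every embryo library and, as shares of trimmed reads, had their highest levels at Met at 15°C. As shares of miRNA reads, miR-217 was highest at 75Ep, at 0.0240% and 0.0259%, against 0.0129% and 0.0174% at Met. On that scale miR-216a had 0.00368% and 0.00382% at Met, and miR-216b kept its highest value, 0.0432%, at Met at 15°C. At 75Ep miR-217 had 46 and 37 reads, which became 52 and 14 at 20S, 68 and 105 in Hatch larvae, then 295 and 132 in Met larvae. Its level ranged from 5.46 RPM (2.98 to 9.16) at 20S at 21°C to 59.4 (52.8 to 66.6) at Met at 15°C. At Hatch at 21°C it was 32.2 (26.4 to 39.0) and at Met at 21°C 31.1 (26.001 to 36.9), with intervals that overlap. miR-216a had 3 and 2 reads at 75Ep, 2 and 8 in 20S embryos, 8 and 8 in Hatch larvae, then 84 and 29 in Met larvae. It was the only one of these 3 to stay under 10 reads in all libraries before Met, and its levels at Met were 16.9 (13.5 to 20.9) and 6.83 (4.57 to 9.80) RPM.

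miR-216b departed most from its neighbours in the Hatch library at 15°C. From 39 and 14 reads at 75Ep it went to 69 and 27 in 20S embryos, 2 and 144 in Hatch larvae, then 987 and 191 in Met larvae. The Hatch library at 15°C, with 4312425 trimmed reads, therefore held 0.464 RPM (0.0562 to 1.68), against 44.2 (37.3 to 52.1) at 21°C. The other 7 libraries had between 6.45 and 199 RPM. In that Hatch library at 15°C miR-217 had 68 reads, against 105 at 21°C, and miR-216a had 8, as many as at 21°C. A drop of this size was thus seen in miR-216b and not in the other members of the cluster. miR-217 was also lower at 15°C, with a share at 21°C of 2.04-fold (1.49 to 2.82) that at 15°C. With 1 library there is no second sample of that group to compare the value of miR-216b with.

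Ratios within a library do not depend on what the reads are divided by. miR-216b had 0.848 (0.539 to 1.33) reads per read of miR-217 at 75Ep at 15°C and 0.378 (0.189 to 0.717) at 21°C. The ratio was 1.33 (0.912 to 1.94) and 1.93 (0.976 to 3.98) for 20S, 0.0294 (0.00349 to 0.110) and 1.37 (1.06 to 1.78) for Hatch, then 3.35 (2.93 to 3.82) and 1.45 (1.15 to 1.82) for Met. The proportions of miR-216b and miR-217 thus differed between the temperatures beyond counting error, both at Hatch and at Met. miR-216a was read less than miR-217 in every library, with 28.5 reads (22.1 to 36.4) per 100 of miR-217 at Met at 15°C and 22.0 (14.2 to 33.04) at 21°C, against 7.62 (3.21 to 15.6) to 11.8 (4.88 to 24.5) at Hatch. Its highest ratio, 57.1 (20.8 to 146) at 20S at 21°C, rests on 8 and 14 reads.

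The ratio of miR-375 to miR-7a set 20S and Hatch apart from 75Ep and Met at both temperatures. Its values were 0.0940 (0.0501 to 0.163) and 0.149 (0.0928 to 0.230) in 75Ep embryos, 1.14 (1.07 to 1.21) and 1.69 (1.59 to 1.80) in 20S embryos, 0.938 (0.894 to 0.984) and 1.18 (1.12 to 1.25) in Hatch larvae, then 0.0965 (0.0907 to 0.103) and 0.141 (0.128 to 0.154) at Met. miR-375 was thus about as frequent as miR-7a in 20S embryos and newly hatched larvae, and far scarcer than miR-7a before and after. At each stage the ratio was the higher one at 21°C, with intervals that overlap only at 75Ep.

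**Figure D2:**
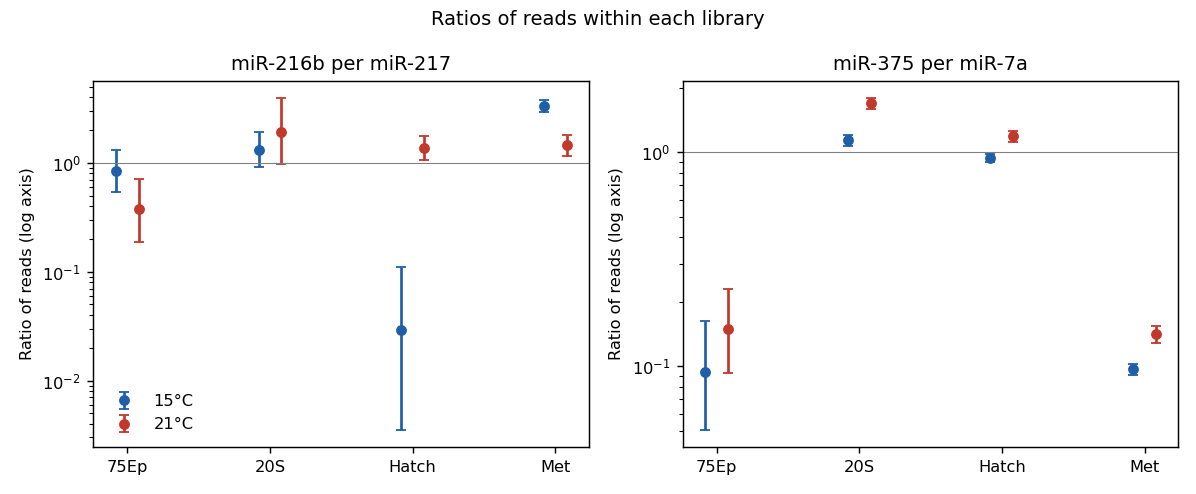
Reads of miR-216b per read of miR-217 (left) and of miR-375 per read of miR-7a (right) in each library, by stage, on log axes, at 15°C (blue) and 21°C (red), with exact 95% counting intervals as bars. The left ratio is 0.0294 at Hatch at 15°C and between 0.378 and 3.35 elsewhere, and the right one is near 1 at 20S and Hatch and between 0.0940 and 0.149 at 75Ep and Met.

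Stages were compared with limma on the log2 of the percent of trimmed reads, over the 295 miRNAs with a read in at least 2 libraries, which include all 6 miRNAs described here. Temperature was a term in the model, tests were two-sided, and a change was called at an adjusted p under 0.05. Each stage entered with its 15°C and 21°C libraries. Of the 6 miRNAs, 2 passed the moderated F-test over the stages, miR-375 (limma adjusted p = 7.56e-04) and miR-7a (limma adjusted p = 0.00384), against 68.8% of all tested miRNAs. miR-217 passed in place of miR-7a once libraries were centred on their median miRNA (limma adjusted p = 0.0305 for miR-217 and 0.105 for miR-7a). The levels of most miRNAs rose over development in these libraries, and over the whole series the median of all 295 changes reached 4.07 in log2 units. Changes are therefore also given as shares of the summed miRNA reads ("rescaled") and after centring each library on the median of the 179 miRNAs read in all 8 ("centred").

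From 75Ep to 20S miR-375 and miR-7a rose and none of the 6 fell, against 39.3% of all tested miRNAs that rose and 1.02% that fell. The rise of miR-375 was 6.86 log2 units, with a standard error of 0.77 (limma adjusted p = 0.00410), which was the smallest p of the 295 and the 3rd largest rise. In reads RPM this was 140-fold (83.5 to 257) at 15°C and 95.9-fold (64.3 to 150) at 21°C. It was 5.10 rescaled and 4.34 centred, passing on both scales. Without the 20S library at 15°C or at 21°C its change was 7.08 and 6.64, and it was not called. Such a fit leaves the stage with a single library, and nearly all calls of other miRNAs were lost there too.

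For miR-7a the rise from 75Ep to 20S was 3.31, with a standard error of 0.76 (limma adjusted p = 0.0140), or 11.6-fold (9.83 to 13.8) at 15°C and 8.47-fold (7.20 to 10.03) at 21°C. This change was 1.55 rescaled (limma adjusted p = 0.0533) and 0.79 centred (limma adjusted p = 0.115) and passed on neither scale. With 1 library left out its adjusted p ran from 0.0120 to 0.145, and the call was lost without the 75Ep library at 15°C and without either library of 20S or Hatch. The acinar miRNAs had changes of 0.46 (miR-216a), 0.64 (miR-216b) and -0.86 (miR-217), below the median of 2.15 of all tested miRNAs, and none passed. Centred, miR-217 fell by 3.37 (limma adjusted p = 0.0287), while miR-216a and miR-216b turned to -2.05 and -1.87 without passing. miR-7b, with at most 1 read at these stages, had a change of 0.98.

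**Figure D3:**
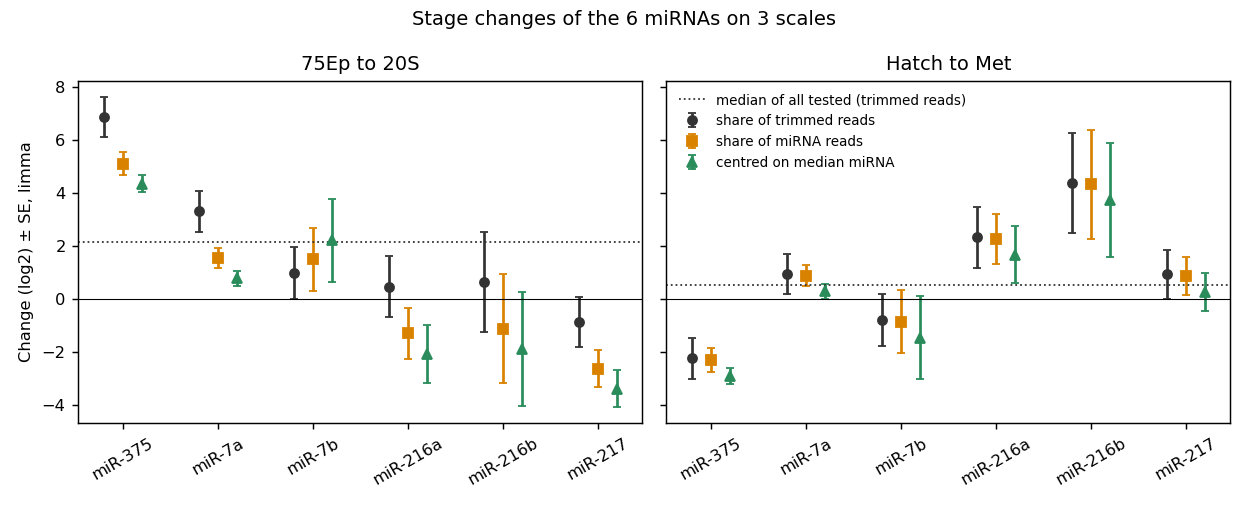
Change on the log2 scale (vertical axis, ± standard error, limma) of each of the 6 miRNAs from 75Ep to 20S (left) and from Hatch to Met (right), as shares of trimmed reads (black), rescaled to all miRNA reads (orange) and centred on the median miRNA (green). The dotted line is the median of the 295 tested miRNAs as shares of trimmed reads, 2.15 on the left and 0.51 on the right. miR-375 stands highest on the left and lowest on the right on all 3 scales.

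From 20S to Hatch none of the 6 rose or fell in limma, none had an unadjusted p under 0.05 and none passed with voom. Of all tested miRNAs 1.36% rose and 0% fell, 47 had an unadjusted p under 0.05 and 2 passed with voom. miR-375 changed by -0.11 (95% interval -1.86 to 1.65) and miR-7a by 0.29 (-1.46 to 2.03), so that both may have moved by over 1 on the log2 scale unseen. miR-216b had a change of -1.71 (-6.03 to 2.61), which became 2.29 without the Hatch library at 15°C. miR-217 had 1.29, miR-216a 0.64 and miR-7b 2.22, on few reads.

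From Hatch to Met none of the 6 passed as shares of trimmed reads, against 13.6% of all tested miRNAs that rose and 4.07% that fell. 2 of the 6 had an unadjusted p under 0.05, as had 92 of all tested, and with voom none of the 6 and 54 of all passed. The change of miR-375 was -2.23 (standard error 0.77, limma adjusted p = 0.0800), or 3.36-fold (3.14 to 3.60) lower at 15°C and 6.59-fold (6.01 to 7.24) lower at 21°C. It passed as a fall on both other scales, by 2.29 rescaled (limma adjusted p = 0.0245) and by 2.89 centred (limma adjusted p = 0.0109), and also without a temperature term (limma adjusted p = 0.0452). With 1 library left out its adjusted p ran from 0.0394 to 0.356, passing without either 75Ep library. Among the 295 changes from Hatch to Met it was the 32nd lowest.

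The other miRNA with an unadjusted p under 0.05 from Hatch to Met was miR-216b, with a change of 4.38 (standard error 1.89, limma adjusted p = 0.153). This value rests on the Hatch library at 15°C, since without it the change was 0.39. By temperature, miR-216b at Met was 428.6-fold (118 to 3544) its level at Hatch at 15°C, on 2 reads at Hatch, and 1.02-fold (0.815 to 1.27) at 21°C. For miR-217 the ratio was 3.77-fold (2.89 to 4.98) at 15°C and 0.964-fold (0.740 to 1.26) at 21°C. For miR-216a the ratios were 9.12-fold (4.42 to 21.8) and 2.78-fold (1.24 to 7.03), and for miR-7a 2.90-fold (2.79 to 3.01) and 1.28-fold (1.21 to 1.35). All 4 ratios were larger at 15°C as shares of trimmed reads, with no replicate check. So was that of miR-375 (0.298-fold and 0.152-fold), while miR-7b went the other way on few reads (0.434-fold and 0.767-fold). The median miRNA at 21°C had 0.958-fold its share at 15°C at Hatch and 0.390-fold at Met. How many of all miRNAs had a larger ratio at 15°C was not counted. Rescaled, the order turned for miR-7a (1.57-fold at 15°C and 2.18-fold at 21°C) and for miR-375 (0.161-fold and 0.259-fold). For miR-216a it was nearly even (4.93-fold and 4.75-fold), while miR-217 (2.04-fold and 1.65-fold) and miR-216b (231.9-fold and 1.74-fold) kept the order. In limma the changes over both temperatures were 0.93 for miR-217, 2.33 for miR-216a and 0.94 for miR-7a.

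Over the whole series, between 75Ep and Met, 3 of the 6 rose and none fell, against 63.4% and 5.42% of all tested miRNAs, so that the share of the 6 that rose is not above that of all miRNAs. Their median change was 3.38 on the log2 scale, against 4.07 for all 295. The rise was 4.54 ± 0.76 (standard error) for miR-7a (limma adjusted p = 0.00106), 4.52 ± 0.77 for miR-375 (limma adjusted p = 0.00108) and 3.44 ± 1.15 for miR-216a (limma adjusted p = 0.0264). Summed with miR-216b, which had more reads, miR-216a rose by 3.33 without passing (limma adjusted p = 0.0643). The rise of miR-216a alone rests on 3 and 2 reads at 75Ep. It did not pass when rescaled (1.34, limma adjusted p = 0.283) or centred (-1.03, limma adjusted p = 0.509). With undetected values as deposited it did not pass either (limma adjusted p = 0.0556). It was also lost without any 1 of the 75Ep and Hatch libraries or the Met library at 15°C, with adjusted p of 0.0297 to 0.182 over the fits with 1 library left out.

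Rescaled, the rises of miR-375 and miR-7a from 75Ep to Met were 2.42 and 2.45 and still passed (limma adjusted p = 0.00920 and 0.00600). Centred, they shrank to 0.05 and 0.08, and none of the 6 rose, beside 70 of all 295. miR-217, with a change of 1.36 as a share of trimmed reads (limma adjusted p = 0.221), then fell by 3.10 (limma adjusted p = 0.0237). miR-217 was the 74th and 98th miRNA by reads of 218 and 220 detected at 75Ep. At Met it was the 157th and 154th of 275 and 268, although its level was higher there. miR-216b had a change of 3.32 (standard error 1.89, limma adjusted p = 0.146), with the spread set by the Hatch libraries. Without the Hatch library at 15°C or at 21°C the same change passed (limma adjusted p = 0.0222 and 0.0273), with 0.0222 to 0.708 over the fits without 1 library. miR-7b had a change of 2.41 (limma adjusted p = 0.0537) on at most 3 reads per library. That value rests on the level given to undetected miRNAs, since it was 1.67 with 0.5 read added and 0.90 with 1 read added (limma adjusted p = 0.129 and 0.273). The change of miR-7b passed without a temperature term (limma adjusted p = 0.0368), and over the fits without 1 library its adjusted p ran from 0.0392 to 0.214, passing without either 20S library or the Hatch library at 15°C.

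None of the 6 differed between temperatures over all stages in limma, where 0% of the 295 miRNAs were higher and 0% lower at 21°C. At an unadjusted p under 0.05 there were none of the 6 and 8 of all, and with voom none. Across the 6 the change at 21°C against 15°C was between -0.34 (miR-217) and 0.59 (miR-216b) on the log2 scale. For miR-375 it was 0.27 (95% interval -0.97 to 1.51) and for miR-7a -0.26 (-1.49 to 0.98). These intervals hold a change of 1 log2 unit upward for the former and of 1 log2 unit downward for the latter. Within a stage there is 1 library per temperature, and the values below carry counting intervals and no test.

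At 75Ep miR-375 was 2.22-fold (1.10 to 4.63) and miR-7a 1.40-fold (1.11 to 1.76) as high at 21°C as at 15°C, where the median of 193 miRNAs read in both libraries was 1.94-fold. miR-216b was 0.464-fold (0.233 to 0.873) and miR-217 1.04-fold (0.656 to 1.64). At 20S miR-375 was 1.51-fold (1.43 to 1.60) as high at 21°C and miR-7a 1.02-fold (0.954 to 1.09), with a median of 1.05-fold over 238 miRNAs. miR-216b and miR-217 were both lower at 21°C, 0.507-fold (0.312 to 0.801) and 0.349-fold (0.178 to 0.638), and miR-216a went the other way on 2 and 8 reads, 5.18-fold (1.03 to 50.1). miR-375 was the only one of the 6 whose share of trimmed reads was higher at 21°C with an interval above 1 at 75Ep, 20S and Hatch alike. How many of all miRNAs share this pattern was not counted. At 75Ep 49.2% of the 193 miRNAs were at least 2-fold higher at 21°C, and miR-375 ranked 84th by this ratio. Rescaled, the pattern was lost at Hatch, where the interval of miR-375 was 0.864 to 0.956.

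At Hatch miR-216b was 95.3-fold (25.9 to 795) as high at 21°C, which was the largest ratio of the 256 miRNAs read in both libraries. The next one, for miR-101a-5p, was 27.5-fold on 5 and 104 reads. At the other stages the largest ratio of any miRNA was 16.8-fold at 75Ep, 498-fold at 20S and 624-fold at Met. miR-217 was 2.04-fold (1.49 to 2.82) as high at 21°C, miR-375 1.11-fold (1.06 to 1.17) and miR-7a 0.883-fold (0.838 to 0.931), where the median of all was 0.958-fold. A ratio of 2-fold or more in favour of 21°C was seen in 12.1% of the 256, and among the 6 in miR-216b and miR-217. The small excess of miR-375 at Hatch turned to 0.909-fold when rescaled.

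At Met all 6 had a lower share at 21°C, as had most miRNAs. For miR-7b, at 0.779-fold on 3 and 2 reads, the interval held 1 (0.0651 to 6.80). The median of 258 miRNAs was 0.390-fold and 64.3% were at least 2-fold lower, in a library whose miRNA reads took 17.9% of trimmed reads against 46.0% at 15°C. miR-7a was 0.390-fold (0.376 to 0.404), which is the median itself, and miR-216a was 0.404-fold (0.255 to 0.622). miR-217 was 0.523-fold (0.423 to 0.644), miR-375 0.568-fold (0.512 to 0.630), and miR-216b 0.226-fold (0.193 to 0.264). Rescaled to the miRNA reads, miR-7a was 1.003-fold and miR-216a 1.04-fold, miR-217 1.35-fold and miR-375 1.46-fold, and miR-216b alone of these remained lower at 21°C, at 0.583-fold (0.497 to 0.681).

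**Figure D4:**
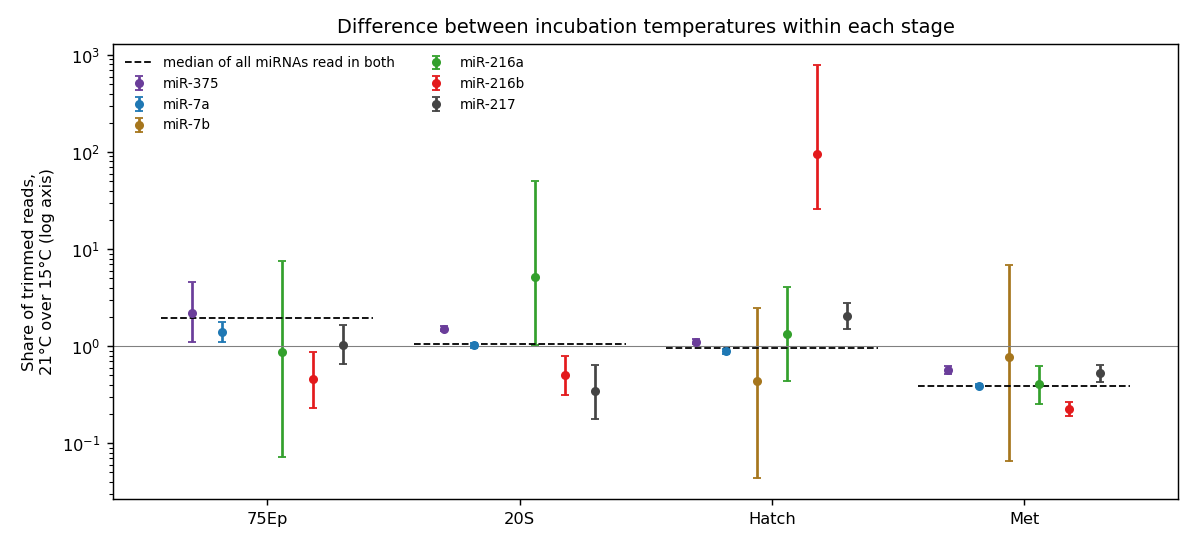
Share of trimmed reads at 21°C over that at 15°C (log axis) for each of the 6 miRNAs within each stage, with exact 95% counting intervals as bars, and the median over all miRNAs read in both libraries of the stage as a dashed line. miR-7b is shown where both libraries hold a read. The point for miR-216b at Hatch, 95.3-fold, stands far above the median of 0.958-fold, and at Met the points lie around a median of 0.390-fold.

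Over the 8 libraries the members paired unevenly, as a description on log2 shares. Pearson's r was 0.82 between miR-375 and miR-7a and 0.51 when centred. Among the cluster of miR-216a, miR-216b and miR-217 it was 0.54 to 0.59, and 0.58 to 0.59 when centred. Between miR-375 and miR-217 it was -0.10, and -0.61 when centred. All values share the libraries and their depth.

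Of the miRNAs read in at least 6 libraries, those most like miR-375 were miR-1788-3p (r = 0.99), miR-30a-3p (0.99) and miR-196a (0.98), and miR-1788-3p was also the first when centred (0.99). For miR-7a they were the neural miR-9a-3p and miR-128 (both 0.99) and miR-135b (0.99), none of which was among its first 3 when centred, where the highest r was 0.77. For miR-216a they were miR-125c (0.94), miR-190b (0.92) and miR-212-3p (0.91), for miR-216b miR-133c (0.78), let-7f (0.75) and miR-101a-3p (0.74), and for miR-217 miR-101a-3p (0.85), miR-1623 (0.84) and miR-129-5p (0.84). For miR-7b, with 14 reads in all, they were miR-133a-5p, miR-153c and miR-181c (0.88 each). When centred, the first 3 of miR-216a, miR-217 and miR-7b were other miRNAs, led by miR-22b (0.86), miR-133c (0.89) and miR-1243 (0.74). miR-216b kept let-7f (0.70) among its first 3, led by miR-724 (0.71). Some of these rest on few reads, with 2 to 9 per library for miR-133c and 0 to 5 for miR-1243. The first 3 are in each case the highest r of 239 or 240 candidates over 8 libraries.

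Since miR-7 is also a miRNA of neurons, neural miRNAs (miR-9, miR-124, miR-128, miR-129, miR-137, miR-138, miR-153 and miR-219) were read beside it. Of 18 listed, 16 rose from 75Ep to Met in limma and none fell, and 10 rose from 75Ep to 20S, against 63.4% and 39.3% of all tested miRNAs that rose. From 20S to Hatch, where 1.36% of all tested rose and 0% fell, 1 of the 18 rose and none fell. From Hatch to Met, where 13.6% rose and 4.07% fell, 3 of the 18 rose and 1 fell. Their summed share was 0.0112% and 0.0466% of trimmed reads for 75Ep, 0.123% and 0.110% for 20S, 0.2998% and 0.244% for Hatch, then 0.807% and 0.316% for Met. The highest value was in Met at 15°C, as for miR-7a, and so it was for the islet, liver and gut, muscle and let-7 lists, in the library with the highest miRNA share (46.0%). The part of neural cells in the levels of miR-7a was not tested. The liver and gut miRNAs (miR-122, miR-192, miR-194 and miR-215), read beside the acinar miRNAs, went from at most 0.0190% of trimmed reads at 75Ep and 20S to 0.251% and 0.219% at Hatch, and 4.17% and 1.30% at Met. Of 6 listed 5 rose from 75Ep to Met, against 63.4% of all tested, and their part in the levels of the acinar miRNAs was likewise not tested.

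A wider list held 51 miRNAs, other than the 6 described here, of families with roles in islets or beta cells of mammals. It was drawn by miRNA number with any letter and strand, so that a role of each entry is not implied. Of the 51, 50 were tested. Between 75Ep and Met there were 33 rises and 1 fall among them, near the 63.4% and 5.42% of all tested miRNAs, with a median change of 4.08 against 4.07 of all tested miRNAs. From 75Ep to 20S 27 rose and 1 fell, beside 39.3% and 1.02% of all, with a median of 3.05 against 2.15. In the later steps few passed, with 1 rise from 20S to Hatch (1.36% of all tested) and 3 rises from Hatch to Met (13.6% of all tested). The largest rises from 75Ep to Met were those of miR-153b, which acts on secretory vesicles, by 9.62 (standard error 1.02), from no read at 75Ep to 516 and 255 reads at Met (a change that depends on the value given to undetected miRNAs), of miR-9a-3p by 8.08 (standard error 0.94), and of miR-9a-5p by 7.79 (standard error 1.56), with limma adjusted p of 2.04e-04, 2.20e-04 and 0.00236. These 3 were on the neural list too. miR-9a-5p, like miR-216b, was uneven at Hatch, with 653 reads at 15°C and 19 at 21°C, in the opposite direction. The 1 that fell was the epithelial miR-200a-5p, whose deposited values at 75Ep are worth 2.58 and 1.26 reads, which are not whole, and which had no whole read at any later stage.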

How the data were processed

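The authors made 1 SOLiD library per stage and temperature from pooled triplicate samples, trimmed the reads in CLC Genomics Workbench, set aside reads of other small RNAs (BLAST) and assigned the remaining ones with miRBase. The deposited values are the log2 of the percent of trimmed reads, as made by the authors, with -46.51 for a miRNA without reads. The study's methods name the trimmed miRNA reads as the divisor, but the deposited values of a library add up to 6.59% to 46.0%, so that they were read as shares of all trimmed reads. How reads that match several paralogs were assigned is not given in the sources used here. The trimmed reads of each library were recovered from the value of 1 read, and 99.5% of the 2033 values were then whole reads within 0.01 read, all those of the 6 miRNAs among them. Values under 1 read counted as undetected and entered at -16.60, a step of 1 log2 unit under the lowest 1-read value.

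limma 3.58.1 in R 4.3.3 was fitted over all 8 libraries, with stage and temperature as terms, 3 residual degrees of freedom, a trended variance prior and p-values adjusted per comparison by Benjamini-Hochberg. The 2 pools of a stage differ in temperature, and the mean difference between temperatures is a term of the fit. The p-values therefore rest on how far that difference varied from stage to stage, and not on replicate libraries of a group. Counting intervals (exact, 95%) were made in Python 3.11.15 with scipy 1.17.1, numpy 2.4.6 and pandas 2.3.3, and figures with matplotlib 3.10.9. On 10 simulated sets for Hatch to Met over 295 miRNAs, 3.5% of 4-fold and 36% of 16-fold changes were recovered, and 5.95% of calls were false. Each set had 40 miRNAs changed at Met in random directions, no other stage change, and independent normal noise with the spread of the fit. The real libraries differ in their miRNA share and in most miRNAs between stages, so these rates may not carry over to them. Alternatives were the 2 other scalings, added reads, other filters and variance priors, undetected values as deposited, voom, no temperature term, summed paralogs and leaving out each library. Named are the 6 miRNAs, the 3 largest called rises and falls of the islet list, and the 3 miRNAs most like each of the 6. miR-101a-5p was named after its values were seen. Members, lists and tests were chosen with earlier results of these data known. Mature sequences and precursor positions were not used here.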

Additional observations from a re-analysis of the deposited data

Results flagged for a closer look

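For 5 of the 6 miRNAs the ratio between temperatures had counting intervals on opposite sides of 1 at different stages, as shares of trimmed reads. How many of all miRNAs share this pattern was not counted, so it is not shown to be particular to the 6. The difference between stages was not tested, since each ratio rests on 1 library per temperature. As share at 21°C over that at 15°C, miR-216b had 95.3 at Hatch and 0.226 at Met, miR-216a 5.18 at 20S and 0.404 at Met, miR-375 2.22 at 75Ep and 0.568 at Met, miR-217 2.04 at Hatch and 0.349 at 20S, and miR-7a 1.40 at 75Ep and 0.390 at Met. The median miRNA had 1.94 at 75Ep and 0.390 at Met. Rescaled to the miRNA reads, the ratio at Met was 1.46 for miR-375, 1.003 for miR-7a and 1.04 for miR-216a, so that none of these 3 was lower at 21°C at Met. Rescaled intervals still lay on opposite sides of 1 for miR-375 (2.30 at 75Ep and 0.909 at Hatch) and miR-7a (1.45 at 75Ep and 0.720 at Hatch), for miR-216b (77.7 at Hatch and 0.583 at Met) and for miR-217 (1.67 at Hatch and 0.361 at 20S), but not for miR-216a.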

How the results depend on the processing

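The calls depended on the scale most of all when libraries were centred. Centred, 0 of the 6 miRNAs rose and 1 fell (miR-217) from 75Ep to Met, and 1 rose (miR-375) and 1 fell (miR-217) from 75Ep to 20S. Rescaled, 1 rose from 75Ep to 20S (miR-375), beside 44 of all 295. From Hatch to Met 1 fell (miR-375) when rescaled, when centred and without a temperature term. Of all 295, 17, 36 and 17 fell in these settings. With 1 library left out, 2 to 4 rose from 75Ep to Met, 0 to 2 from 75Ep to 20S, 0 to 1 fell from Hatch to Met and 2 to 3 differed between the stages. Each fit without a library leaves its stage with a single one, and from 75Ep to 20S nearly all calls over all miRNAs were lost without either 20S library. No other count of the 6 under an alternative with all libraries left 1.5 times its given value.

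Among log2 changes, these turned when rescaled: miR-216a (-1.29) and miR-216b (-1.12) from 75Ep to 20S, miR-217 from 75Ep to Met (-0.73), and miR-7a between temperatures (0.036). These turned when centred: from 75Ep to Met miR-216a (-1.03), miR-216b (-1.14) and miR-217 (-3.10), from 75Ep to 20S miR-216a (-2.05) and miR-216b (-1.87), and from 20S to Hatch miR-7a (-1.01), miR-216a (-0.65) and miR-217 (-0.0069). Among ratios whose counting interval left out 1, the log2 ratio of 21°C to 15°C turned when rescaled for miR-375 at Hatch (-0.14) and Met (0.55), and at Met for miR-7a (0.0049), miR-216a (0.056) and miR-217 (0.43). Centred, it turned for miR-375 at Hatch (-0.15) and Met (0.30), miR-7a at 75Ep (-0.44) and miR-217 at Met (0.18). The cause was not tested.

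With 1 library left out, the sign was not stable for the temperature term of miR-375 (-0.020 to 0.63), miR-7a (-0.50 to 0.11), miR-7b (-0.51 to 0.53), miR-216a (-0.37 to 0.85), miR-216b (-1.41 to 1.495) and miR-217 (-0.80 to 0.051). The same held from 75Ep to 20S for miR-7b (-0.26 to 2.21), miR-216a (-0.91 to 1.84) and miR-216b (-0.49 to 1.77), from 20S to Hatch for miR-375 (-0.33 to 0.11), miR-216a (-0.73 to 2.01) and miR-216b (-5.70 to 2.29), and from Hatch to Met for miR-7b (-1.65 to 0.062). The temperatures were compared within stages, through the stage term. No paired analysis by replicate number was possible because each group has 1 library and the labels carry no such numbers. Depth limits miR-7b and, before Met, miR-216a, which had at most 8 reads per library there.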
